A study of Drosophila melanogaster with 5 samples.

Results

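Broad Pol II domains were the RNA polymerase II (Pol II) peaks wider than 2000 bp in chromatin immunoprecipitation and sequencing (ChIP-seq) of Drosophila melanogaster eye imaginal discs. They were chosen by width alone, the end minus the start of each peak in the authors' list. There were 360 of them among 10105 Pol II peaks, or 3.56%, and they covered 1148 kb, or 18.1% of all bases under Pol II peaks. The discs, which give rise to the eye of the adult fly, came from instar 3 larvae. The Yki and Sd libraries came from GMR-Gal4; UAS-Drosophila Yki S168A discs, and the Pol II library from GMR-Gal4; UAS-Drosophila Yki-V5 discs. GMR-Gal4 drives expression in the posterior eye disc, so every library carried extra Yki in part of the tissue, and ectopic cell proliferation is the labelled phenotype of both genotypes. Chromatin of about 300 pooled discs went into each immunoprecipitation. Each antibody had 1 library, and each genotype an input library whose values were not analysed here. Antibody and genotype cannot be told apart in any comparison of Yki or Sd with Pol II. Without replicates no p-value is given. Intervals are exact 95% intervals that cover counting error only and treat peaks as independent. Read depth is unknown.

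Pol II transcribes protein-coding genes, and in Drosophila it often pauses just after the start site, which gives a narrow peak. A wide region of Pol II signal forms where polymerase also occupies the body of a gene or where neighbouring promoters run together. The antibody used, 8WG16, binds mainly the unphosphorylated tail repeats of the largest subunit. Yorkie (Yki) is the coactivator that the Hippo pathway holds in check to limit growth, and the S168A form lacks a phosphorylation site through which it is held back. Scalloped (Sd) is the TEAD-family protein that carries Yki to DNA. No gene names or sequences are attached to the domains, because the gene table used here is on another genome build. Positions are on dm3, counted from 1.

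Domains became fewer with width, and 223 of the 360 were wider than 2.5 kb. The median width was 2666 bp, the quartiles 2327 and 3395 bp and the upper decile 4821 bp, while Pol II peaks of 2000 bp or less had a median of 413 bp. Beyond 3 kb lay 132 domains, beyond 5 kb 30, and beyond 10 kb 3. The domains just inside the limit were 2 on chromosome 4, at 577719 to 579719 (2001 bp) and 212585 to 214598 (2014 bp), and 1 on 2L at 8430617 to 8432618 (2002 bp). Just outside it were peaks of 2000 bp on 3R at 9226315, 1999 bp on X at 7793495 and 1998 bp on 3R at 16943666. Widths thus ran through the limit without a gap, and the number of domains depends on it.

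The authors' peak caller gave each peak 1 score, whose unit is not stated. Wide peaks scored high: the median Pol II score was 89.2 in the domains and 28.5 in the narrower peaks. Within the 360 domains width and score went together only loosely, with a rank correlation (Spearman) of 0.28 and a linear one (Pearson) of 0.17; all points share 1 library. Width and score come from the same library that defined the domains, so these values are a description.

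By chromosome, 91 domains lay on 3R, 76 on 2R, 63 on 3L, 55 on X and 51 on 2L, which is 2.91% to 3.86% of each arm's Pol II peaks. The small chromosome 4, which is largely heterochromatic, held 15 domains. Those were 7.65% of its 196 Pol II peaks (4.35 to 12.3), and the 5 larger arms together had 3.45% of 9753 peaks (3.09 to 3.83). Its density was 11.1 domains per Mb, against 2.82 over the larger arms. The remaining 9 domains lay on heterochromatic or unplaced sequence.

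**Figure D1:**
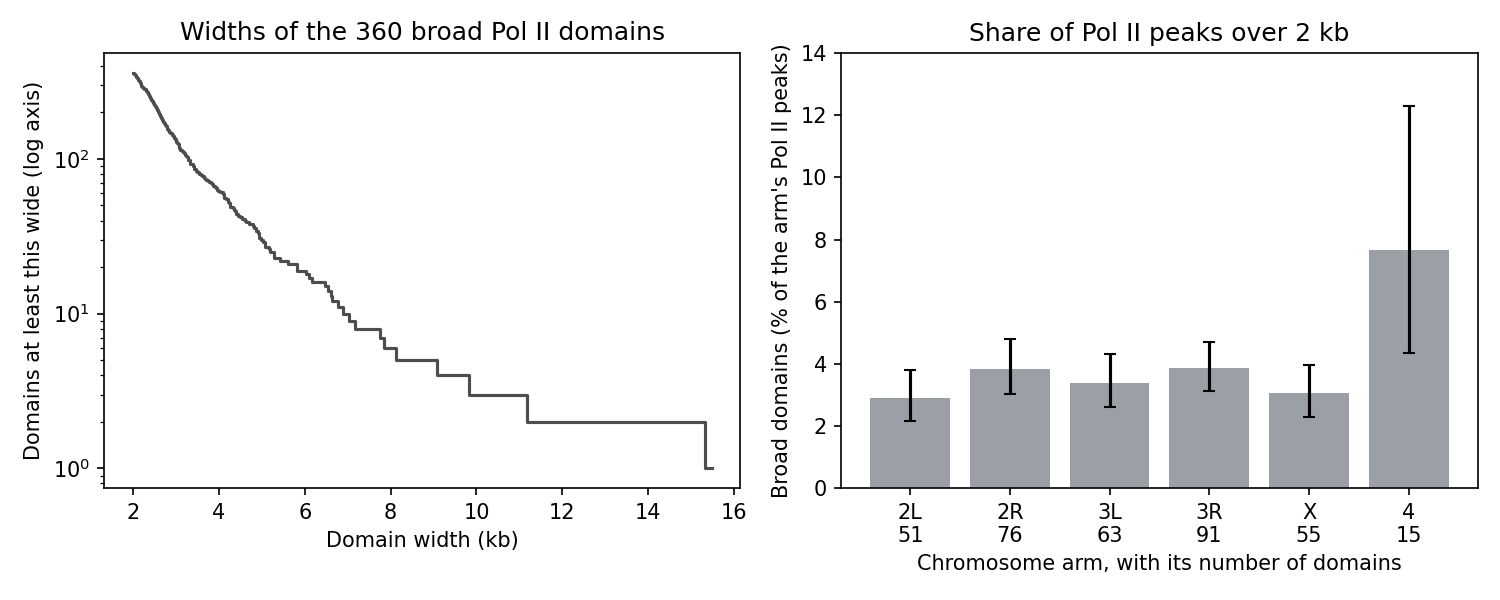
Left, number of broad Pol II domains (log axis) at least as wide as each width in kb. Right, broad domains as a percentage of the Pol II peaks of each chromosome arm, with exact 95% intervals and the number of domains under each arm; chromosome 4 reached 7.65%, and the other arms stayed between 2.91% and 3.86%.

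The widest domains show how differently Yki and Sd can be laid out under a long Pol II region. Yki was present in 9 of the 10 widest and Sd in 6. A 9823 bp domain on 3L, from 16030347 to 16040169 (Pol II score 116), held 6 Yki and 5 Sd peaks. Its Yki peaks covered 51.2% of the domain and lay at both ends and in the middle. The strongest Yki peak there scored 83.3 and was centred 6.11 kb from the left end, between Sd peaks centred at 5.6 and 6.56 kb. No other domain held as many Sd peaks.

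The widest domain, 15479 bp on 3L from 628280 to 643758 (score 95.9), overlapped 4 Yki and 3 Sd peaks. A Yki and an Sd peak sat across its left end. The highest-scoring Yki peak (50.2) was centred 12.1 kb inside, with Sd peaks at 11.8 and 12.2 kb. Between 1.84 and 10.97 kb from the left end no Yki centre was found. An 11169 bp domain on X, from 1506066 to 1517234 (score 64.9), had Yki centres at 0.205, 1.35 and 5 kb. Its 1 Sd peak, at 4.87 kb, lay on the strongest of the Yki peaks (56.7).

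The next widest domain was unlike these. It spanned 15334 bp on 2R from 5522285 to 5537618, scored only 26 and had no Yki or Sd peak. It stood in a row of abutting domains: a 2342 bp domain (score 21.1, no Yki) ended 150 bp to its left, and an 8127 bp domain from 5537778 to 5545904 (score 93.7) began 159 bp to its right. The 8127 bp domain held 3 Yki centres, at 5.45, 6.05 and 8.01 kb from its own left end, all on the side away from the 15334 bp domain. In this row of adjoining domains Yki was thus found only toward the right-hand end.

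In 4 of the other wide domains Yki lay toward a single end. On 3R, the 9075 bp domain from 14068280 to 14077354 had Yki centres at 0.263, 1.71 and 2.29 kb and none further in. On 3L, the 7845 bp domain from 223882 to 231726 had them at 0.271, 0.883 and 1.31 kb. On 3R, the 7168 bp domain from 24678193 to 24685360 had 1 Yki centre at 6.36 kb and Sd centres at 5.93 and 6.78 kb. The 7025 bp domain on 3R from 1420406 to 1427430 had Yki centres at 5.03 and 6.13 kb. The 7745 bp domain on 3R from 21470458 to 21478202 was different, with Yki centres at 2.4, 3.31 and 7.25 kb and an Sd centre at 7.38 kb.

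**Figure D2:**
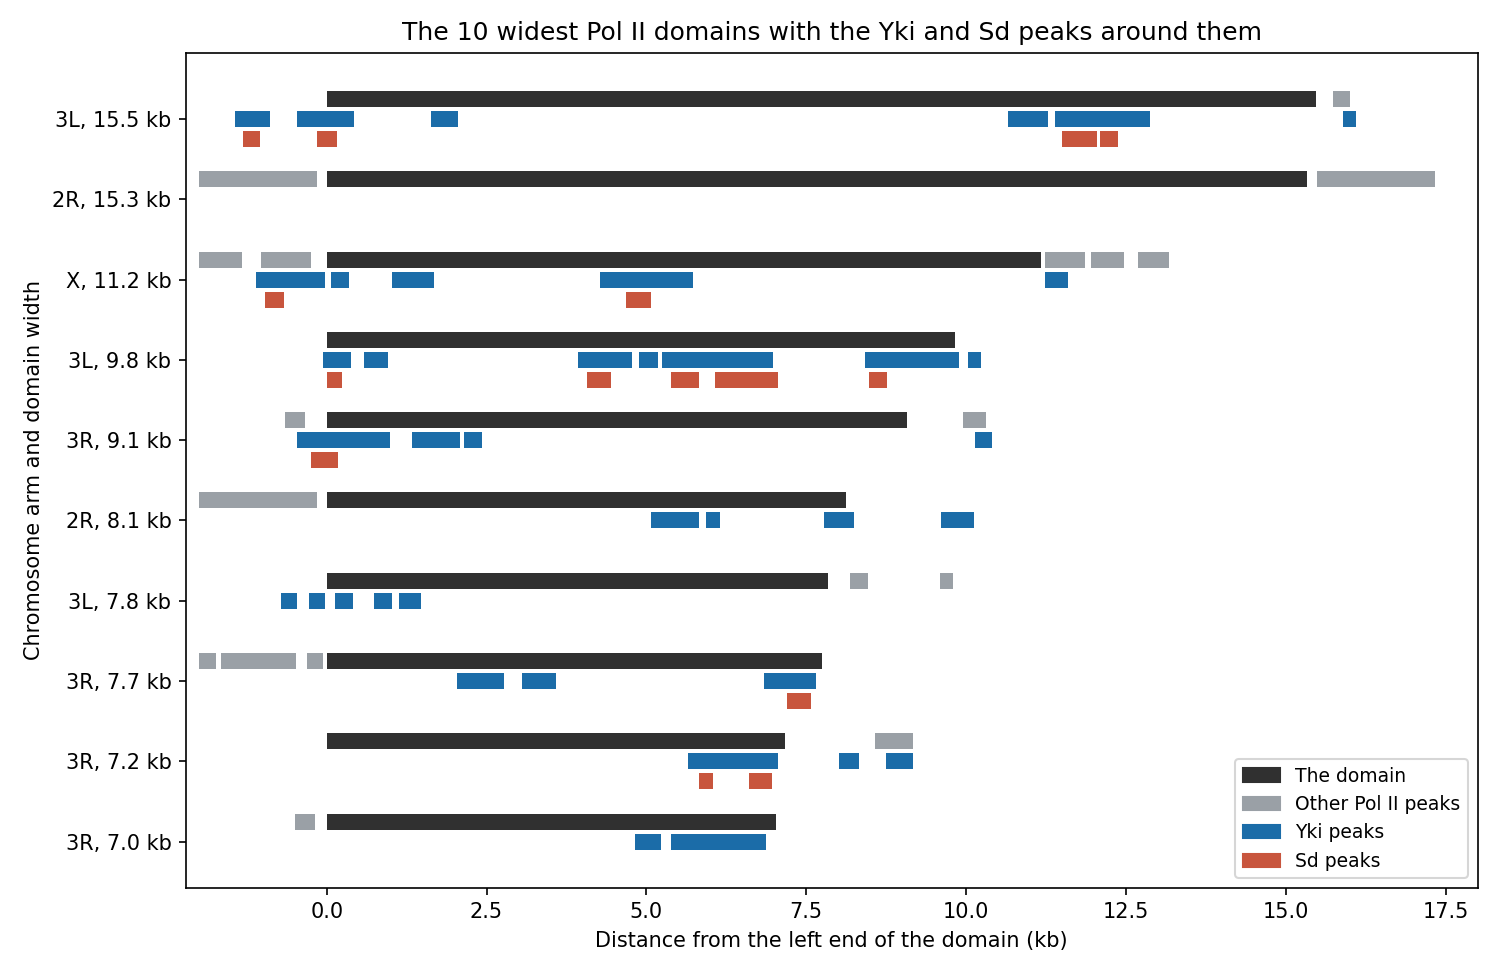
The 10 widest Pol II domains, drawn to scale from their left end in kb, with other Pol II peaks, Yki peaks and Sd peaks inside and up to 2 kb beyond them. Yki peaks lie toward a single end in some rows and are spread along the domain in others, the 15.3 kb domain on 2R has none, and the 9.8 kb domain on 3L has 6 Yki and 5 Sd peaks.

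Most domains carried Yki, and a smaller set of them also carried Sd. A Yki peak overlapped 311 of the 360 domains by at least 1 bp, or 86.4% (82.4 to 89.8), against 62.4% of 9745 narrower Pol II peaks (61.5 to 63.4). Over all Pol II peaks the share was 63.3%. An Sd peak overlapped 97 domains, or 26.9% (22.4 to 31.8), against 9.27% of the narrower peaks (8.7 to 9.86) and 9.9% of all Pol II peaks. The difference between domains and narrower peaks was 24.0 points for Yki (19.9 to 27.3) and 17.7 points for Sd (13.3 to 22.5). Every domain with Sd also had Yki, as did 902 of the 903 narrower peaks with Sd. Domains with Sd alone were 0 of 360. That allows a share of up to 0.833% if 3 counts are taken as the limit of a count of 0, and 1.02% by the exact interval. A Yki peak lay on 98.3% of Sd peaks in domains, 99.8% of those in narrower Pol II peaks and 96.5% of those outside. The sharing was thus not particular to domains. Among Pol II peaks with Yki, Sd was also present in 31.2% of domains (26.1 to 36.7) and 14.8% of narrower peaks (13.9 to 15.7).

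Windows as wide as the domains were placed in 3 ways to give levels for comparison. A window of the same width at any position on the same chromosome would meet Yki in 24.98% and Sd in 6.45% of positions, so the domains were 3.46 times above that level for Yki and 4.18 times for Sd. Windows moved by 20 kb to either side, which stay in the same neighbourhood, met Yki in 31.7% and Sd in 6.99% of 715 cases; 33.0% of these windows touched a Pol II peak. The closest placement took the narrower Pol II peaks of the same chromosome and extended each about its centre to the width of the domain. It met Yki in 77.1% and Sd in 17.0% of cases. The domains stood 9.31 points above it for Yki and 9.99 points for Sd. No test of these gaps is given, since no replicate exists. An extended window can also take in neighbouring narrower Pol II peaks of any score, which a domain does not. The median gap from a narrower peak to another Pol II peak was 677 bp. Levels of extended peaks therefore do not show what width alone gives.

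The gap to extended narrower peaks was larger for Sd in the wider classes. In domains of 2 to 2.5 kb Sd was present in 16.8% (10.95 to 24.1, n = 137), against 14.9% for extended narrower peaks. At 2.5 to 3 kb it was present in 21.98% (13.97 to 31.9, n = 91), against 15.8%. In domains of 3 to 5 kb it was present in 37.3% (27.9 to 47.4, n = 102), against 18.8%. Over 5 kb it was present in 53.3% (34.3 to 71.7, n = 30), against 23.5%. In the classes of 2 to 2.5 kb and 2.5 to 3 kb the Sd interval includes the level of extended peaks, and in those of 3 to 5 kb and over 5 kb it does not. Extended narrower peaks of the same score decile, a comparison chosen after seeing the data, met Sd in 19.5% at 2 to 2.5 kb, above the domains, and in 21.86% at 2.5 to 3 kb, about the level of the domains. They met it in 25.9% at 3 to 5 kb and 30.1% over 5 kb, below the intervals of the domains. The Yki share was 82.5% in domains of 2 to 2.5 kb (75.1 to 88.4), against 72.6% for extended peaks, and 93.3% over 5 kb (77.9 to 99.2), against 90.3%. Extended peaks over 5 kb were so close to 100% that a Yki gap as large as in the narrowest class, 9.85 points, could not have been seen there. Median Pol II score also rose with width, and was 74.1 at 2 to 2.5 kb and 109 over 5 kb.

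**Figure D3:**
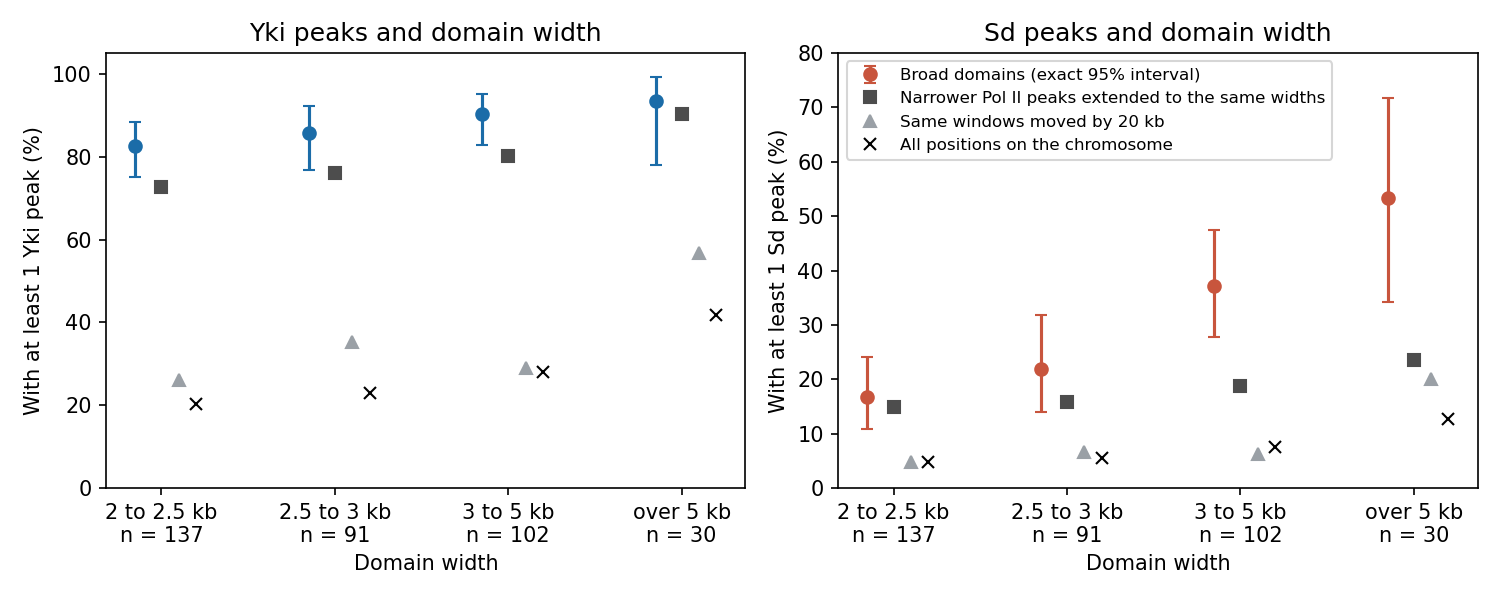
Percentage of broad Pol II domains in 4 width classes that overlap a Yki peak (left) or an Sd peak (right), with exact 95% intervals, beside windows of the same widths around narrower Pol II peaks, moved by 20 kb, and at all positions of the chromosome. The Sd share rises to 53.3% over 5 kb, while extended narrower peaks reach 23.5%.

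Pol II score divided the domains into a group with Yki almost everywhere and a group with little. Ranked by score within the whole Pol II list, 292 domains fell in deciles 7 to 10 (scores of 44.5 and above) and 68 in deciles 1 to 6; this division was made after the values were seen. Yki overlapped 290 of the 292, or 99.3% (97.5 to 99.9), against 90.03% of 3751 narrower peaks in the same deciles (89.03 to 90.97). In deciles 8, 9 and 10 it overlapped all 59, 90 and 108 domains. Of the 68 low-score domains it overlapped 21, or 30.9% (20.2 to 43.3), against 45.2% of 5994 narrower peaks (43.9 to 46.4). Low-score domains therefore met Yki less often than narrower peaks in those deciles, although they are wider, and the intervals did not overlap. The 2 groups of domains had similar median widths, 2692 bp at high and 2543 bp at low score. Wide domains were more frequent at high score, with 115 of 292 over 3 kb against 17 of 68 at low score.

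Decile by decile the order of domains and narrower peaks turned round. In decile 4, 1 of 18 domains had Yki (5.56%, 0.141 to 27.3), against 52.5% of narrower peaks (49.4 to 55.7). In decile 5, 7 of 23 did (30.4%, 13.2 to 52.9), against 67.8%. In decile 6, 57.9% of 19 did (33.5 to 79.7), an interval that reaches the 78.8% of narrower peaks. In decile 8, all 59 did (93.9 to 100), above 88.7% of narrower peaks (86.6 to 90.7). Against narrower peaks of the same score decile extended to the domain's width, the low-score domains were at 30.9% against 73.8%, and the high-score domains at 99.3% against 94.9%. Score was matched for the central peak only, since these windows can hold neighbouring Pol II peaks of other scores. Averaged over all domains this comparison gave 90.9% for Yki, above the 86.4% observed. The excess of 9.31 points over extended narrower peaks was thus not present in the average at matched score. That average joins gaps of opposite direction. The interval of the high-score domains (97.5 to 99.9) lay above their extended level, and that of the low-score domains (20.2 to 43.3) lay below theirs. At matched score an excess therefore remained in the high-score domains only.

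For Sd the domains lay above narrower peaks at high score, but the gap was smaller against narrower peaks extended to the domain's width. Sd overlapped 30.1% of the 292 high-score domains (24.9 to 35.8), against 14.3% of narrower peaks in those deciles (13.2 to 15.5). Narrower peaks of the same decile extended to the domain's width met it in 24.0%, just below the interval of the domains. Of the 68 low-score domains 13.2% had Sd (6.23 to 23.6), against 6.12% of narrower peaks (5.53 to 6.76), and these intervals overlap. The highest share was in decile 10, with 42.6% of 108 domains (33.1 to 52.5), against 19.0% of narrower peaks (16.5 to 21.7) and 28.4% of extended ones. In deciles 7, 8 and 9 the domains were at 22.9%, 20.3% and 24.4%. Extended narrower peaks there were at 14.7%, 22.5% and 23.2%, each inside the interval of the domains. Extended narrower peaks of the same score decile met Sd in 22.8%, against 26.9% of all domains, a level inside the interval of the domains. In low-score domains 13.2% was observed, below the extended level of 17.9%, which is also inside the interval. That level was uneven, at 30.8% in decile 6 against 15.6% in decile 5. Some levels rest on few windows, since a domain had as few as 3 even before the split by decile. Among domains over 3 kb, Sd was on 52 of 115 high-score domains (45.2%, 35.9 to 54.8) and on 2 of 17 low-score domains (11.8%, 1.46 to 36.4).

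**Figure D4:**
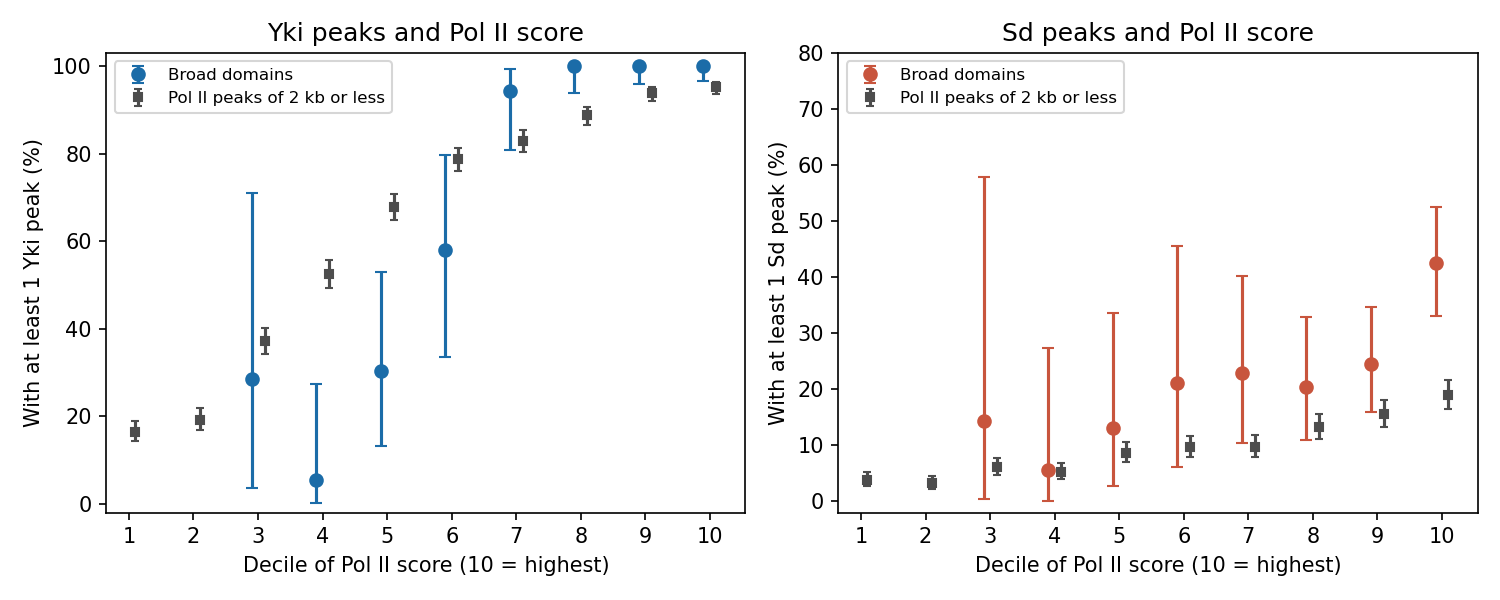
Percentage of broad Pol II domains, and of Pol II peaks of 2 kb or less, that overlap a Yki peak (left) or an Sd peak (right), by decile of Pol II score, with exact 95% intervals; deciles with fewer than 2 domains are left out for domains. Domains lie below narrower peaks for Yki in deciles 3 to 6, with intervals that overlap in deciles 3 and 6, and reach 100% in deciles 8 to 10.

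The 49 domains without Yki were low in Pol II score and close to other Pol II peaks. Their scores ran from 7.95 to 60.7 with a median of 21.1, against 94.9 for the 311 domains with Yki. Another Pol II peak lay within 500 bp of 44 of the 49, or 89.8% (77.8 to 96.6), against 183 of the 311 with Yki, or 58.8% (53.1 to 64.4), and 44.5% of narrower Pol II peaks (43.5 to 45.5). The median distance to it was 166 bp against 368 bp. The nearest Yki peak was a median of 1977 bp away, and 6 of the 49 had a Yki peak within 500 bp. When Pol II peaks less than 500 bp apart were joined before the width limit was applied, 61.3% of 142 low-score regions had Yki (52.7 to 69.3). A joined region took the highest score of its peaks, so these regions are a different set from the 68 low-score domains. No matched level was computed for them. The part of neighbouring Pol II peaks in the low Yki share was not tested.

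Apart from the 15334 bp domain on 2R, the widest domains with neither protein were 5817 bp on 2R from 6411134 to 6416950 (score 17.9), 4629 bp on X from 1482238 to 1486866 (19.4), 4112 bp on chromosome 4 from 1227087 to 1231198 (27.6) and 3668 bp on 3R from 17135311 to 17138978 (22.2). The last of these belonged to a row of 3 such domains on 3R, since 17139201 to 17141274 (score 19.6) and 17142001 to 17144982 (23.6) had neither protein. The 5 highest-scoring domains, by contrast, all had Yki and 3 of them Sd. The first was 2413 bp on 3R from 8192791 to 8195203 (score 147), where a Yki and an Sd peak shared the right end, centred at 2.24 and 2.18 kb. The second, 2090 bp on 2L from 9893155 to 9895244 (143), had Yki centres at 1.23 and 1.94 kb and no Sd. The third was 2259 bp on 3L from 20777498 to 20779756 (142), and a single 1747 bp Yki peak covered 77.3% of it.

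Counted by centre, the domains held 473 Yki and 110 Sd peaks. Of the 360 domains, 154 held 1 Yki centre, 94 held 2 and 39 held more, while 73 held none. For Sd, 74 domains held 1 centre, 14 held 2 and 2 held more. A Yki or Sd centre lay in 43.6% and 7.93% of all Pol II peaks. The most Yki centres, 6, were in the 9823 bp domain on 3L and in a 5828 bp domain on 3L from 9374549 to 9380376. A 6616 bp domain on 2R from 8473933 to 8480548 held 5 Yki peaks over 70.9% of its length and no Sd peak. A 2363 bp domain on 2R from 14028062 to 14030424 held 4 Yki and 2 Sd centres, and a 2198 bp domain on 2L from 19575205 to 19577402 held 2 of each, with Yki peaks over 93.0% of its length.

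Per kb, Yki was sparser in the domains than in narrower Pol II peaks. The density was 0.412 centres per kb in domains (0.376 to 0.451), 0.601 in Pol II peaks of 1 to 2 kb (0.56 to 0.646) and 0.834 in all narrower peaks (0.809 to 0.859). Yki peaks covered 23.9% of the bases of domains, 32.5% of those of 1 to 2 kb peaks and 38.7% of those of all narrower peaks. Narrower Pol II peaks had a median width of 413 bp, near the 403 bp of Yki peaks, so 1 centre gives a high density there. No density was computed for narrower peaks extended to the domains' widths, and the part of width in this order was not tested. Within the domains Yki density fell as width grew, and was 0.531 per kb at 2 to 2.5 kb and 0.343 per kb over 5 kb. Sd density was 0.0958 centres per kb in domains (0.0788 to 0.115), 0.143 in 1 to 2 kb peaks (0.123 to 0.166) and 0.14 in all narrower peaks (0.13 to 0.15). Across the width classes of the domains it was 0.0814 at 2 to 2.5 kb, 0.077 at 2.5 to 3 kb and 0.111 both at 3 to 5 kb and over 5 kb. No intervals were computed for these classes, so a trend with width cannot be judged from them. Both proteins were denser in domains than in windows moved by 20 kb, which had 0.119 Yki and 0.0263 Sd centres per kb. Low-score domains had 0.147 Yki centres per kb (0.0985 to 0.211), close to the moved windows, and high-score domains 0.467 (0.425 to 0.512). For Sd, low-score domains had 0.0457 centres per kb (0.0209 to 0.0867) and high-score domains 0.106 (0.0865 to 0.129). The low-score Sd interval overlaps that of the moved windows (0.0201 to 0.0338).

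Yki and Sd were crowded toward the ends of the domains. Since the direction of transcription is unknown here, positions were measured from the nearer end. The outermost 10% at each end, together 20% of the length, held 40.2% of the Yki centres (35.7 to 44.7) and 50.9% of the Sd centres (41.2 to 60.6). The middle 20% held 12.1% of Yki centres (9.26 to 15.3) and 15.5% of Sd centres (9.27 to 23.6). The left and right ends were alike, with 97 and 93 Yki centres and 27 and 29 Sd centres. In Pol II peaks of 1 to 2 kb the same outer zones held 24.5% of Yki centres (21.5 to 27.7) and 40.1% of Sd centres (32.9 to 47.6). In bp the order was the other way, with a median distance to the nearer end of 404 bp in domains and 284 bp in 1 to 2 kb peaks for Yki, and 326.5 and 200 bp for Sd. A zone of 10% is longer in a wider peak, so these shares do not show a stronger end preference in domains.

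In base pairs, most of the crowding lay within about 500 bp inside a domain end. Over the 720 ends, Yki centres reached 1.06 per kb between 100 and 200 bp inside (0.832 to 1.32). They averaged 0.875 per kb in the first 300 bp inside (0.755 to 1.01), 0.292 between 500 and 1000 bp inside (0.239 to 0.353) and 0.268 in the 1000 bp outside (0.232 to 0.309). For Sd the same zones gave 0.255 (0.192 to 0.331), 0.0583 (0.0361 to 0.0892) and 0.0486 (0.0339 to 0.0676). In the 100 bp directly outside an end Yki stood at 0.528 per kb (0.373 to 0.724), above its average over 1000 bp outside. Sd stood there at 0.0972 (0.0391 to 0.2). Between 500 and 1000 bp inside, the intervals of both proteins overlapped those of the 1000 bp outside. Another Pol II peak lay within 500 bp of 63.1% of domains and of 44.5% of narrower Pol II peaks, so some outside stretches hold other Pol II peaks.

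**Figure D5:**
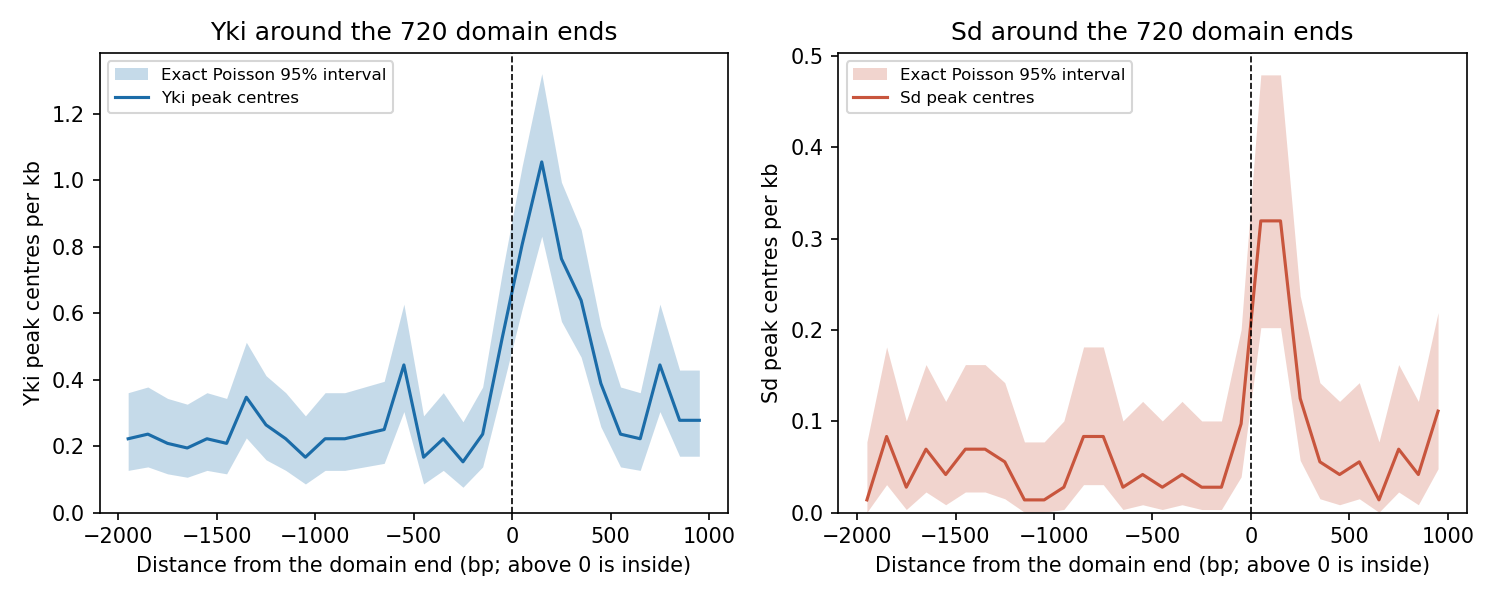
Density of Yki (left) and Sd (right) peak centres per kb around the 720 ends of the 360 broad domains, in bins of 100 bp, with distance above 0 inside the domain and exact Poisson 95% intervals. Yki peaks at 1.06 per kb between 100 and 200 bp inside, and both curves fall back within about 500 bp.

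The ends were also counted per domain. Taking the outer 500 bp at each end, 212 of the 311 domains with Yki had a Yki peak at only 1 end (68.2%, 62.7 to 73.3), 82 at both ends (26.4%, 21.6 to 31.6) and 17 only in between (5.47%, 3.22 to 8.61). Left and right ends alone came to 102 and 110. Of the 311, 155 overlapped only 1 Yki peak, and 500 bp zones take up much of a domain near the limit, so these counts follow in part from peak number and zone size; no width-matched level was computed. For Sd, 70 of 97 domains had it at 1 end (72.2%, 62.1 to 80.8), 2 at both ends and 25 only in between (25.8%, 17.4 to 35.7). The highest-scoring Yki peak of each domain lay in the outer 10% of an end in 135 of 287 domains, or 47.0% (41.1 to 53.0). Where a domain held exactly 2 Yki centres, they were a median of 1484 bp apart, or 0.543 of the width, over 94 domains.

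Yki peaks in domains had scores nearer to those in narrower Pol II peaks than to those outside Pol II. Of all Yki peaks, 532 overlapped a domain, 5804 a narrower Pol II peak only and 5343 no Pol II peak. Their median Yki scores were 27.8 in domains, 25.5 in narrower peaks and 16.3 outside, and their median widths 498, 433 and 363 bp. An Sd peak lay on 21.2% of those in domains (17.8 to 24.97), 16.9% of those in narrower peaks (16.0 to 17.9) and 23.4% of those outside (22.3 to 24.6). Within quintile 5 of Yki score, the highest, Sd was on 50.0% of 152 in domains (41.8 to 58.2), 45.9% of 1364 in narrower peaks (43.2 to 48.6) and 67.7% of 823 outside (64.4 to 70.9). In quintile 3 the shares were 6.54% (2.67 to 13.02), 6.35% and 23.8% (21.1 to 26.6), and in quintile 1 they were 4.29% (0.893 to 12.02), 0.747% and 4.28% (3.34 to 5.39). At like Yki score, the intervals of domains and narrower Pol II peaks overlapped. Those of domains and peaks outside Pol II were apart in quintiles 3 to 5 and overlapped in quintiles 1 and 2. The median Sd score was 6.67 in domains and 6.81 in narrower peaks.

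Some domains lay close to another domain. Of the 360, 36 had another domain within 1 kb and 87 (24.2%) within 5 kb. Neighbouring domains may not be independent, and the intervals above, which take them as independent, may be too narrow. Pol II peaks as a whole lay close together, with a median gap of 677 bp from a narrower peak to another Pol II peak. No matched level was computed, so these counts do not show grouping particular to broad domains. Of 264 windows of 100 kb with a domain, 8 held 4 or more. The window with the most was on 2R from 5500001 to 5600000, with 5 domains that include the 15334 bp and 8127 bp ones; only 2 of the 5 had Yki and none had Sd. On 3L from 200001 to 300000 all 4 domains had Yki and none had Sd. On 3L from 22800001 to 22900000, 3 of 4 had Yki and 1 had Sd. These windows thus ranged from mostly without Yki to all with it.

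Chromosome 4 and heterochromatic sequence held few domains, with wide intervals. Yki and Sd shares over all Pol II peaks of each chromosome are not given here. The counts below therefore do not show traits particular to broad domains. On chromosome 4, 9 of 15 domains had Yki (60.0%, 32.3 to 83.7), and the larger arms had 87.5% of 336 (83.5 to 90.8); the intervals just overlap. Sd was on 5 of the 15 (33.3%, 11.8 to 61.6) and on 25.6% over the larger arms (21.01 to 30.6). The median Pol II score was also lower on chromosome 4, at 37.5 against 90.5. Of the 15, all 7 with a high score had Yki, and 2 of the 8 with a low score did. On the X chromosome 43 of 55 domains had Yki (78.2%, 65.0 to 88.2) and 14 had Sd. Of the 9 domains on heterochromatic or unplaced sequence, 8 had Yki and 6 had Sd, namely all 3 on 2RHet and all 3 on 3LHet. These sequences hold repeats, where reads can map to more than 1 place, and how such reads were treated is not given in the sources used here.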

How the data were processed

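Immunoprecipitated DNA from fixed eye discs was sequenced, and 3 peak lists were analysed (Yki, Sd and Pol II). Per the submitters' processing notes, the authors used CASAVA 1.8.2, Bowtie, MACS2 and genome build dm3. Versions of Bowtie and MACS2, their settings and the control used were not stated. Each line of a deposited list holds a chromosome, a start, an end, a name and a score of the authors. The lowest score was 3.01 in both the Yki and the Pol II list and 2.00 in the Sd list, so the lists may have been called with unequal limits; scores ranked peaks within 1 list only. Peaks of a list did not overlap each other.

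Overlap meant at least 1 shared bp. Shares carry exact Clopper-Pearson and densities exact Poisson 95% intervals; differences of shares carry Newcombe intervals. Placement at all positions was enumerated, with the last peak end in any list as the chromosome length. Extended windows that touched a domain or left the chromosome were dropped; 5 domains had no narrower peak of their score decile left on their chromosome. Named regions were the 10 widest domains, the 5 with most Yki centres, most Sd centres, highest score and widest with neither protein, the 3 nearest the limit on each side, and the 3 windows of 100 kb with most domains; other regions were chosen after their values were seen, and not every domain of these sets is described. Members and tests were chosen with earlier results of these data known. Functions were checked on simulated peaks. Python 3.11.15, numpy 2.4.6, scipy 1.17.1, statsmodels 0.14.6 and matplotlib 3.10.9 were used.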

Additional observations from a re-analysis of the deposited data

How the results depend on the processing

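A value counted as moved when it left the 95% interval of the reported one (for extended narrower peaks, when it moved by more than the margin of the domains' own interval), or when a number of domains changed by over 1.5 times. Of 45 alternatives, 21 moved a value and 24 did not. The number of domains was 638 with a limit of 1500 bp, 132 with 3000 bp and 796 with Pol II peaks less than 500 bp apart joined. The share with Yki was 90.9% over 3000 bp, 79.7% by centre, 75.3% with the upper 50% of Yki peaks, 92.5% with joined peaks and 100% in the upper 50% of domains by score. The share with Sd was 40.9% over 3000 bp, 14.2% with the upper 50% of Sd peaks and 35.6% in the upper 50% of domains. The low-score share with Yki was 61.3% with joined peaks, which are a different set of regions as given above. It was between 29.2 and 38.2% under the other 4 alternatives. Windows moved by 100 kb met Yki in 25.5%. Extended narrower peaks in the upper 50% by score met Yki in 91.9% and Sd in 22.6%, and those of the same score decile in 90.9% and 22.8%; the Yki levels lie above the 86.4% of the domains. In domains with exactly 1 centre, 50.0% of Yki and 60.8% of Sd centres lay in the outer 10% at either end. Density with the upper 50% of each list was 0.258 Yki and 0.047 Sd centres per kb. Counting Yki or Sd peaks within 500 bp of a domain, matching by score decile, the Sd score limit of 3 and all alternatives for low-score domains were chosen after seeing the data. No paired analysis was possible because no antibody had a replicate. A domain without a Yki or Sd peak is one where none was called, which depends on a depth that is unknown.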
